A study of Mus musculus with 20 samples.

Results

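Cells that produce oxygen radicals, as microglia can, depend on a small set of enzymes that remove superoxide and peroxides. The genes described here are 10 such antioxidant enzymes, *Gpx1*, *Gpx3*, *Gpx4*, *Sod1*, *Sod2*, *Prdx1*, *Txnrd1*, *Nqo1*, *Gclm* and *Cat*, which were chosen by name and were found, all 10, among the 16810 genes of the table. Polyadenylated RNA was sequenced from cells of high eGFP signal, called microglia, which had been sorted out of a short segment of thoracic cord around the lesion or its equivalent. All mice were adult males, 12 weeks old when injured, heterozygous for an eGFP inserted in the chemokine receptor gene *Cx3cr1* (CX3CR1+/eGFP), and non-injured (NI) mice carried the same allele. The lesion was made at thoracic level 9, either as a lateral hemisection (HS) of the cord or as a full transection (FT), and cells were taken after 72 h, 1 week or 2 weeks. NI, HS 72 h, HS 2 weeks, FT 72 h, FT 1 week and FT 2 weeks had 3 samples each and HS 1 week had 2, which makes 20 samples in 7 groups. The reporter also labels blood monocytes and macrophages derived from them. A gate on high eGFP leaves out the dimmer of these, such as classical monocytes with much LY6C, but does not by itself separate brighter ones from resident microglia, and LY6C was stained in separate mice and not in this sort. The methods call the replicates biological and give more mice than libraries, but which animals went into which sample is not given, and p-values measure only the spread between these samples.

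Superoxide dismutases turn superoxide into hydrogen peroxide, *Sod1* encoding the enzyme of the cytosol and *Sod2* that of the mitochondrial matrix. Hydrogen peroxide is then removed by catalase (*Cat*), by glutathione peroxidases and by peroxiredoxins. *Gpx1* encodes the main intracellular glutathione peroxidase, *Gpx3* a secreted form found in plasma, and *Gpx4* the form that reduces lipid peroxides within membranes, and all of them carry selenocysteine in mice. *Prdx1* encodes a cytosolic peroxiredoxin that is recycled by thioredoxin and, through it, by thioredoxin reductase 1 (*Txnrd1*). *Gclm* encodes the modifier subunit of the ligase that starts glutathione synthesis, and *Nqo1* a quinone reductase. *Gclm*, *Nqo1*, *Txnrd1* and *Prdx1* are textbook targets of the transcription factor NRF2 (*Nfe2l2*), which binds antioxidant response elements, is held down by KEAP1 and competes with BACH1.

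The values were normalized read counts on the scale of counts per mega-read (CPM), and the recovered depth ranged from 3.87 to 34.1 mega-reads per sample. The defining markers of microglia were present in every group, with a summed level of 10 markers between 18503 and 38940 CPM. Single markers moved, however. *Tmem119* fell in all 6 comparisons with NI, *Sall1* at HS 72 h, FT 72 h and HS 2 weeks and *P2ry12* at FT 2 weeks, whereas *Fcrls* rose at 72 h after both injuries and at FT 1 week and *Olfml3* at 72 h after both. A set of 10 genes of monocytes and macrophages, with none at 0 in all samples, had sums of 85.8 to 101 CPM in NI, 647 to 823 CPM at HS 72 h and 570 to 1425 CPM at FT 72 h, and 220 to 503 CPM at the later times. Of this set only *Fn1* rose at HS 1 week and FT 1 week. At 2 weeks *Fn1* and *F13a1* were called after each injury, 1 higher and 1 lower. The median log2 fold change of the set was 1.05 at HS 1 week and 0.61 at HS 2 weeks, but 0.08 at FT 1 week and 0.10 at FT 2 weeks. A set of 10 proliferation genes summed to 118 to 131 CPM in NI, 896 to 1521 CPM at 72 h and 133 to 249.7 CPM later. In such bulk samples fewer cells of a type and less RNA per cell cannot be told apart. A set of 10 dissociation and stress genes was lower at 72 h, with sums of 4119 to 6789 CPM in NI, 2107 to 3013 CPM at HS 72 h and 2123 to 2613 CPM at FT 72 h, where 3 and 4 of the 10 fell and none rose. The part of this set in the 72 h changes below was not tested. It also set 1 library apart in each of 3 groups. It summed to 3817 CPM in FT 1 week replicate 1 beside 916 and 599.8 CPM in the others, to 1498 CPM in HS 2 weeks replicate 1 beside 6853 and 7915 CPM, and to 636 CPM in FT 2 weeks replicate 1 beside 6105 and 5665 CPM. Which of the calls named below were lost on leaving out 1 library is given with them or at the end of their group.

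Of the 10 genes, 4 held the core of the antioxidant response element, TGACNNNGC on either strand, within 250 bases before and 50 bases after a start site listed by RefSeq on GRCm38.p6. This core was found in 12.4% of 32851 mouse promoters of that length, all 10 genes had a promoter entry, and the 10 had 15 entries in all. The 4 stretches are shown because 3 of these genes rose at 72 h and *Gclm* did not pass the test, and the match stands in capitals (in each it reads as the core on the opposite strand). None of the stretches overlapped an annotated exon.
Prdx1, chr4:116685440-116685500, + strand: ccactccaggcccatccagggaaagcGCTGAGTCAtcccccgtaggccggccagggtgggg
Sod1, chr16:90220680-90220740, + strand: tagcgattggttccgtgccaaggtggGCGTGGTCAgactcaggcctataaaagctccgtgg
Txnrd1, chr10:82859088-82859148, + strand: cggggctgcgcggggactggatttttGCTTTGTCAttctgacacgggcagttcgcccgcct
Gclm, chr3:122245397-122245457, + strand: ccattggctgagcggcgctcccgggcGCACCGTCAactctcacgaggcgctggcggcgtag
Counted from the start site, the matches began at -133 in *Prdx1*, -56 in *Sod1*, -92 in *Txnrd1* (the second of its 3 start sites) and -134 in *Gclm*. The match in *Prdx1* overlapped an AP-1 site (TGANTCA), and *Prdx1* was the 1 gene of the 10 with that motif, which 7.81% of all promoters held. The GC box GGGCGG was found in all 10 genes and in 35.7% of all promoters. For each motif a gene was counted if any of its entries held it, whereas the shares are of single promoter entries. A gene with several entries has more chances of a match, so that counts and shares are not alike. A match is a description of the letters and not a bound site.

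*Gpx3* changed most of the 10 genes in every comparison with NI. It lies on chromosome 11 (GRCm38, 54902453 to 54910377, + strand). The NI samples had 5.06, 4.12 and 3.07 CPM. At 72 h the HS samples had 57.6, 72.7 and 56.4 CPM and the FT samples 84.4, 73.9 and 81.7 CPM. At 1 week the values were 40.6 and 38.4 CPM after HS, and 83.1, 108 and 126 CPM after FT. At 2 weeks they were 16.7, 15.2 and 20.8 CPM after HS, and 34.3, 23.7 and 24.2 CPM after FT. Every injured sample was above every NI sample, and FT samples were above HS samples at each time without overlap.

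The change of *Gpx3* from NI was a log2 fold change of 3.79 ± 0.20 (SE) at HS 72 h, or 13.8-fold (adjusted p = 4.19e-11, limma, Benjamini-Hochberg over all genes). It was 3.15 ± 0.23 at HS 1 week (8.86-fold, adjusted p = 1.4e-08) and 1.99 ± 0.20 at HS 2 weeks (3.97-fold, adjusted p = 1.01e-06). After FT it was 4.16 ± 0.20 at 72 h (17.8-fold, adjusted p = 9.78e-12), 4.54 ± 0.20 at 1 week (23.2-fold, adjusted p = 3.31e-12) and 2.61 ± 0.20 at 2 weeks (6.10-fold, adjusted p = 1.89e-08). Fold changes are on the scale of log2(CPM + 0.5), which understates the change of genes as low as *Gpx3* in NI. These 6 comparisons share the NI samples, in which *Gpx3* rested on 32, 32 and 85 reads.

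**Figure D1:**
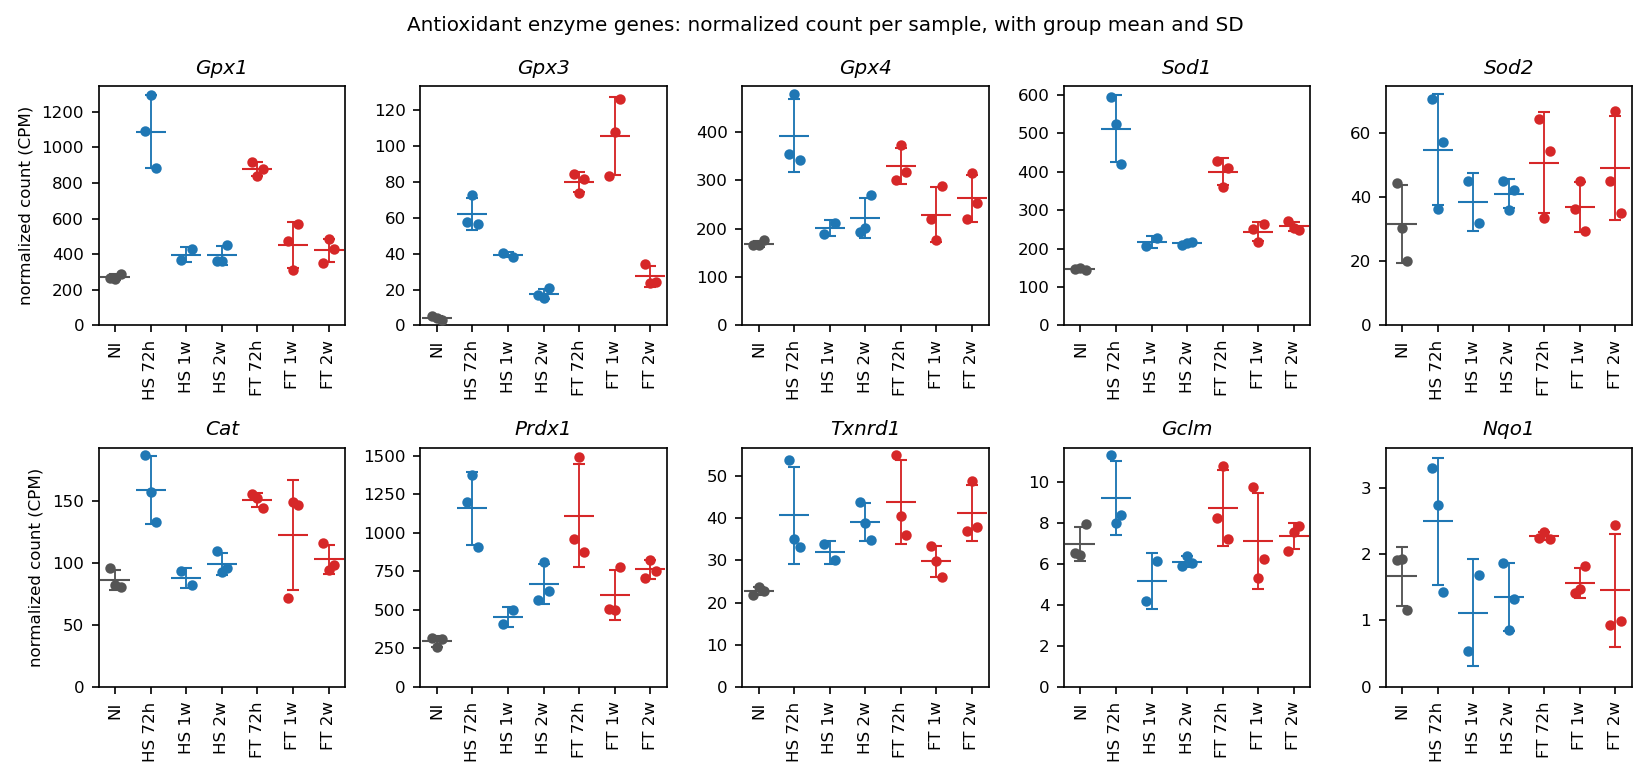
Normalized count in CPM (y axis, from 0) of each of the 10 genes in each sample, by group (x axis; grey, non-injured NI; blue, hemisection HS; red, full transection FT). Points are samples, and bars give the group mean and SD. *Gpx3* lies between 3.07 and 5.06 CPM in NI and between 15.2 and 126 CPM in all injured samples, whereas *Gclm* and *Nqo1* pass in no comparison with NI.

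*Gpx1* rose 3.97-fold at HS 72 h and 3.24-fold at FT 72 h and was lower again at 1 week. It lies on chromosome 9 (108338903 to 108340343, + strand) and had 266, 258 and 289.9 CPM in NI. The 72 h samples had 1090.5, 1293 and 884 CPM after HS and 919, 841 and 879 CPM after FT, all of them above NI. Against NI this was a log2 fold change of 1.99 ± 0.21 for HS (adjusted p = 3.86e-07) and 1.70 ± 0.21 for FT (adjusted p = 3.71e-06). At 1 week *Gpx1* had 367 and 428 CPM after HS and 472, 314 and 571 CPM after FT. The log2 fold change was 0.55 ± 0.23 for HS 1 week, which did not pass (adjusted p = 0.286), and 0.70 ± 0.21 for FT 1 week (adjusted p = 0.0442), a call that was lost without any 1 of 5 of the 6 samples compared (FT 1 week replicate 2 excepted; adjusted p 0.00591 to 0.268). At 2 weeks the values were 363, 363 and 453 CPM after HS and 352, 484 and 428 CPM after FT, and neither passed (log2 fold change 0.53 ± 0.21, adjusted p = 0.182, and 0.62 ± 0.21, adjusted p = 0.0704).

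*Gpx4* (chromosome 10, 80047166 to 80056439, + strand) rose at 72 h by less than *Gpx1*. It had 165, 165.5 and 176 CPM in NI, 355, 479 and 343 CPM at HS 72 h and 301, 373 and 318 CPM at FT 72 h. The 72 h samples were all above NI, with a log2 fold change of 1.20 ± 0.20 after HS (adjusted p = 0.00013) and 0.96 ± 0.20 after FT (adjusted p = 0.00122). At 1 and 2 weeks it lay between 176 and 316 CPM and passed in no comparison with NI. The Gpx4-ps2 transcript matches *Gpx4* at 99.7% over 733 bases and is not in the table, so that reads of either could not be told apart by the files.

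*Prdx1* rose at 72 h and at 2 weeks after both injuries and at FT 1 week, but did not pass at HS 1 week. It lies on chromosome 4 (116685544 to 116700822, + strand) and had 319, 256 and 311 CPM in NI. At 72 h it had 1203, 1376 and 907 CPM after HS and 963, 1493 and 876 CPM after FT. At 2 weeks it still had 563, 812 and 622 CPM after HS and 708, 827 and 755 CPM after FT. All of these samples were above NI without overlap. For *Prdx1* the log2 fold change against NI was 1.96 ± 0.23 at HS 72 h (adjusted p = 2.39e-06) and 1.87 ± 0.23 at FT 72 h (adjusted p = 4.58e-06). At 2 weeks it was 1.16 ± 0.23 after HS (adjusted p = 0.00327) and 1.37 ± 0.23 after FT (adjusted p = 0.000404). At 1 week it was 0.61 ± 0.26 after HS, from 406 and 497 CPM (adjusted p = 0.297), and 0.98 ± 0.23 after FT, from 504, 502 and 782 CPM (adjusted p = 0.00999, and 0.0713 without NI replicate 2 or 0.0879 without FT 1 week replicate 3). Processed pseudogenes match *Prdx1* at 97.5% and 98.3% over 597 bases and are not in the table.

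*Cat* (chromosome 2, 103453849 to 103485160, - strand) rose at 72 h after both injuries and passed at no later time. It had 95.9, 82.5 and 80.9 CPM in NI, 188, 157 and 133 CPM at HS 72 h and 156, 153 and 145 CPM at FT 72 h. The 72 h samples did not overlap NI, and the log2 fold change was 0.87 ± 0.22 after HS (adjusted p = 0.00478) and 0.81 ± 0.22 after FT (adjusted p = 0.00917). At FT 1 week it had 149 and 147 CPM in replicates 2 and 3 but 71.6 CPM in replicate 1. The log2 fold change there was 0.43 ± 0.22 with all samples (adjusted p = 0.302) and 0.78 without replicate 1 (adjusted p = 0.0025). At HS 1 week and at 2 weeks after either injury it had 82.3 to 116 CPM, a range that overlaps NI, and did not pass.

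*Sod1* and *Sod2*, which make the peroxide that these enzymes remove, differed in how clearly they moved. *Sod1* (chromosome 16, 90220754 to 90226329, + strand) had 146, 149.9 and 143 CPM in NI. At 72 h it had 594, 523 and 419 CPM after HS and 429, 362 and 409.5 CPM after FT. At 1 and 2 weeks it had between 206 and 271 CPM, and every injured sample was above every NI sample. The log2 fold change from NI was 1.79 ± 0.15 at HS 72 h (adjusted p = 2.49e-08) and 1.45 ± 0.15 at FT 72 h (adjusted p = 5.86e-07). At FT 1 week and FT 2 weeks it was 0.73 ± 0.15 and 0.81 ± 0.15 (adjusted p = 0.00407 and 0.00121). At HS 1 week it was 0.57 ± 0.17 (adjusted p = 0.0914) and at HS 2 weeks 0.55 ± 0.15 (adjusted p = 0.041), a call lost on leaving out any 1 of the 6 samples (adjusted p 0.0934 to 0.137). *Sod1* shares 650 bases of the genome with *Scaf4* on the opposite strand, and the strand setting of the counting is not given in the sources used here.

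*Sod2* (chromosome 17, 13006846 to 13040063, + strand) spread widely within groups. It had 44.5, 30.4 and 20.2 CPM in NI, 70.8, 36.4 and 57.2 CPM at HS 72 h and 64.4, 33.6 and 54.3 CPM at FT 72 h, so that the ranges overlapped. The log2 fold change from NI was 0.80 at HS 72 h (95% confidence interval 0.17 to 1.42, adjusted p = 0.0527) and 0.69 at FT 72 h (0.07 to 1.32, adjusted p = 0.0994). Neither passed, but the HS value passed without NI replicate 1 (1.08, adjusted p = 0.018) and without HS 72 h replicate 2 (1.07, adjusted p = 0.0226), and the FT value without NI replicate 1 (0.97, adjusted p = 0.0353) and without FT 72 h replicate 2 (0.96, adjusted p = 0.036). The HS 72 h value also passed with median of ratios scaling (adjusted p = 0.0438), with a replicate block (0.0408) and in a fit on the 2 groups (0.0416). It passed in the edgeR likelihood ratio test (adjusted p = 0.039) and DESeq2 (0.0332) as well. It did not pass under quantile normalization, in the edgeR quasi-likelihood test or with columns scaled to 1 total (0.30, adjusted p = 0.426). The FT 72 h value passed in none of these settings. At the later times *Sod2* had 29.3 to 66.9 CPM and did not pass.

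*Txnrd1* (chromosome 10, 82833951 to 82897712, + strand) was raised at 72 h and at 2 weeks by less than 2-fold. It had 21.9, 23.8 and 22.8 CPM in NI, 53.9, 35.1 and 33.2 CPM at HS 72 h and 55.2, 40.6 and 36.1 CPM at FT 72 h. Every injured sample lay above every NI sample, the lowest being 26.02 CPM at FT 1 week. The log2 fold change was 0.79 ± 0.20 at HS 72 h (adjusted p = 0.0055, and 0.0543 without HS 72 h replicate 1) and 0.91 ± 0.20 at FT 72 h (adjusted p = 0.00205). At 2 weeks it was 0.76 ± 0.20 after HS (adjusted p = 0.0266, lost without any 1 of 5 of the 6 samples) and 0.83 ± 0.20 after FT (adjusted p = 0.00941, and 0.0666 without FT 2 weeks replicate 2). At 1 week it was 0.48 ± 0.22 after HS and 0.37 ± 0.20 after FT and did not pass (adjusted p = 0.371 and 0.351). *Txnrd1* shares 1305 bases with *Eid3* on the same strand.

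*Gclm* and *Nqo1* passed in no comparison with NI. *Gclm* (chromosome 3, 122245557 to 122270732, + strand) had 6.55, 6.43 and 7.96 CPM in NI, 11.3, 8.01 and 8.41 CPM at HS 72 h and 8.24, 10.8 and 7.21 CPM at FT 72 h. Its log2 fold change at 72 h was 0.37 after HS (95% confidence interval -0.12 to 0.86, adjusted p = 0.251) and 0.29 after FT (-0.20 to 0.79, adjusted p = 0.389), and it turned negative at -0.11 and -0.15 when all columns were scaled to 1 total. *Nqo1* (chromosome 8, 107388225 to 107403206, - strand) had 1.91, 1.93 and 1.15 CPM in NI, 3.303, 2.73 and 1.44 CPM at HS 72 h and 2.25, 2.34 and 2.23 CPM at FT 72 h. Its log2 fold change at 72 h was 0.43 after HS (95% confidence interval -0.27 to 1.14, adjusted p = 0.353) and 0.38 after FT (-0.33 to 1.08, adjusted p = 0.44). Both genes were read rarely, *Nqo1* by 4 to 100 reads and *Gclm* by 30 to 343 reads per sample, and the 72 h intervals of *Nqo1* reach past 2-fold (1 on the log2 scale). The 3 *Nqo1* values at FT 72 h and the 3 *Gclm* values at HS 72 h nevertheless lay above all NI values.

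**Figure D2:**
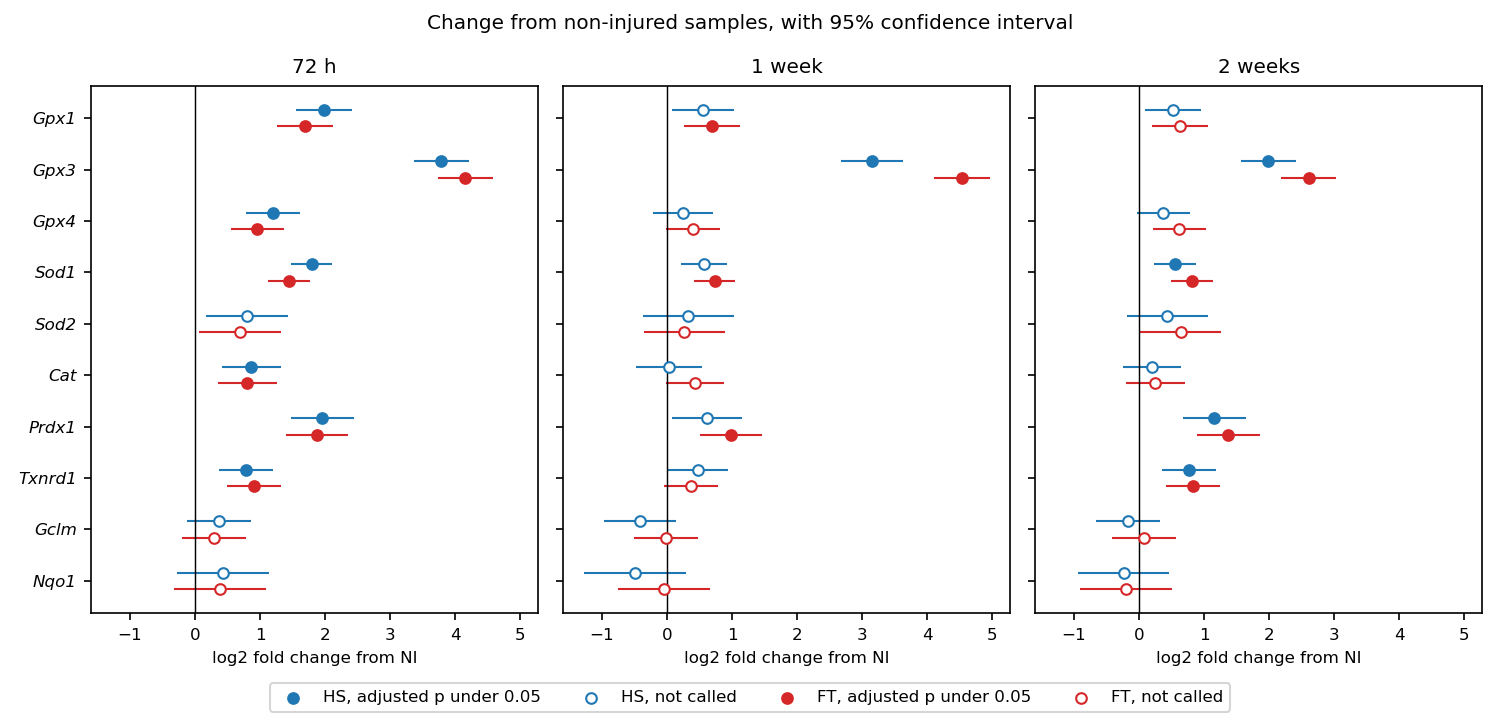
Log2 fold change from NI (x axis) of each gene (y axis) at 72 h, 1 week and 2 weeks, for HS (blue) and FT (red), with the 95% confidence interval of the limma fit as a line; filled points have an adjusted p under 0.05 and open points do not. At 72 h the same 7 genes are filled after HS and after FT, and *Gpx3* lies farthest right in all 3 panels, from 1.99 to 4.54.

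Counted over the 10 genes, 7 rose at HS 72 h (*Gpx1*, *Gpx3*, *Gpx4*, *Sod1*, *Cat*, *Prdx1* and *Txnrd1*), 5 of them by at least 2-fold, where 16.4% of all genes rose and 9.08% rose at least 2-fold. The same 7 rose at FT 72 h, 4 of them by at least 2-fold, against 14.8% and 8.14% of all genes. At HS 1 week 1 rose, *Gpx3*, which also passed 2-fold, against 2.07% and 1.7%. At HS 2 weeks 4 rose (*Gpx3*, *Prdx1*, *Sod1* and *Txnrd1*), 2 of them at least 2-fold, against 3.84% and 2.43%. At FT 1 week 4 rose (*Gpx3*, *Gpx1*, *Sod1* and *Prdx1*), 1 of them at least 2-fold, against 5.11% and 2.86%. At FT 2 weeks 4 rose (the genes of HS 2 weeks), 2 of them at least 2-fold, against 6.21% and 3.53%. None of the 10 fell in these comparisons, where 10.9%, 0.607% and 1.15% of all genes fell at the 3 HS times in order and 9.33%, 1.92% and 1.96% at the FT times. The median log2 fold change of the 10 genes was 1.03 at HS 72 h and 0.93 at FT 72 h, beside -0.11 and -0.09 over all genes. As the 10 genes were chosen with earlier results of these data known, their excess over all genes is not independent evidence. The sums of the monocyte and proliferation sets moved in the same direction at 72 h, where 10 of 10 proliferation genes rose after either injury and 4 (HS) and 6 (FT) of 10 monocyte genes rose, and their part in these values was not tested.

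How the columns are scaled bears on the smaller of these changes. The deposited columns sum to 777425 to 830481 CPM in NI and to 878070 to 1202186 CPM after injury. Scaling all columns to 1 total shifted the median change over the whole table, on the log2 scale, by -0.42 at HS 72 h and -0.40 at FT 72 h, and by -0.19 to -0.34 later, and lowered the share of higher genes among those called from 60.1% to 18.5% at HS 72 h and from 61.4% to 19.2% at FT 72 h. For HS 1 week, HS 2 weeks, FT 1 week and FT 2 weeks this share went from 77.3%, 77%, 72.7% and 76.0% to 47.3%, 32.1%, 22.9% and 20.9%. Under quantile normalization the shares were 50.2% (HS 72 h), 50.8% (FT 72 h), 63.2%, 64.7%, 59.6% and 58.9% in the same order, and *Cat* at FT 72 h was the call of the 7 that was lost there (0.46, adjusted p = 0.055). With columns scaled to 1 total, *Gpx1*, *Gpx3*, *Gpx4*, *Sod1* and *Prdx1* still rose at 72 h after both injuries, but *Cat* (log2 fold change 0.36 and 0.34, adjusted p = 0.105 and 0.136) and *Txnrd1* (0.29 and 0.44, adjusted p = 0.282 and 0.106) did not pass. At FT 1 week, FT 2 weeks and HS 2 weeks *Gpx3* and *Prdx1* still passed, while *Sod1*, *Txnrd1* and, at FT 1 week, *Gpx1* did not. *Gpx3* kept a log2 fold change of at least 1.70 in all 6 comparisons.

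The times were also compared with each other within each injury. From 72 h to 1 week after HS, *Gpx1* fell 2.71-fold (log2 fold change -1.44 ± 0.23, adjusted p = 0.000336), *Prdx1* 2.54-fold (-1.35 ± 0.26, adjusted p = 0.00197) and *Sod1* 2.34-fold (-1.22 ± 0.17, adjusted p = 7.27e-05). These were the 3 of 10 genes lower by at least 2-fold, where 4.07% of all genes were. *Gpx4* (-0.95, adjusted p = 0.0091) and *Cat* (-0.84, adjusted p = 0.0314) fell by less than 2-fold. *Gpx3* had a log2 fold change of -0.64 ± 0.23 that did not pass (adjusted p = 0.0794). Between 1 and 2 weeks after HS none of the 10 passed, where 0.00595% of all genes (1 gene) were lower by at least 2-fold. *Gpx3* had the largest difference there (-1.16 ± 0.23, adjusted p = 0.14) with the 3 samples at 2 weeks all below both at 1 week. From 72 h to 2 weeks after HS, *Gpx3* fell 3.48-fold (adjusted p = 3.12e-06), *Gpx1* 2.75-fold (adjusted p = 5.77e-05) and *Sod1* 2.37-fold (adjusted p = 1.13e-05), 3 of 10 against 3.37% of all genes. *Gpx4* (-0.82, adjusted p = 0.0106) and *Prdx1* (-0.80, adjusted p = 0.0304) fell by less over that step.

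After FT, from 72 h to 1 week *Gpx1* fell 2.00-fold (log2 fold change -1.001 ± 0.21, adjusted p = 0.00445), the 1 gene of the 10 past 2-fold, where 2.62% of all genes were. *Sod1* (-0.71 ± 0.15, adjusted p = 0.00659) and *Prdx1* (-0.89 ± 0.23, adjusted p = 0.0251) fell by less. In a fit on the samples of these 2 groups alone none of these 3 falls passed (adjusted p = 0.128, 0.224 and 0.252 for *Gpx1*, *Sod1* and *Prdx1*). *Gpx3* had a log2 fold change of 0.38 ± 0.20 over this step, which did not pass (adjusted p = 0.31), with overlapping samples. From 1 to 2 weeks after FT *Gpx3* fell 3.81-fold (-1.93 ± 0.20, adjusted p = 8.38e-05) and was 1 of only 4 genes of the table lower by at least 2-fold in that comparison (0.0238% of all genes). From 72 h to 2 weeks after FT, *Gpx3* fell 2.92-fold (adjusted p = 2.65e-05) and *Gpx1* 2.10-fold (adjusted p = 0.00212), 2 of 10 against 2.68% of all genes, and *Sod1* fell by less (-0.63, adjusted p = 0.0158). Whether the step from 72 h to 1 week differs between HS and FT was not tested.

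Several falls after 72 h rested on few samples. The falls of *Gpx4* and *Cat* from 72 h to 1 week after HS were lost without either sample of HS 1 week, among others (adjusted p up to 0.106 and 0.228). The fall of *Prdx1* from 72 h to 1 week lost its call without HS 1 week replicate 1 after HS (adjusted p = 0.0523) and without FT 72 h replicate 2 or FT 1 week replicate 1 or 2 after FT (adjusted p up to 0.144). From 72 h to 2 weeks the smaller falls were lost on leaving out any 1 of 2 of the 6 samples for *Gpx4* after HS (HS 72 h replicate 2 or HS 2 weeks replicate 1, adjusted p up to 0.0716), and any 1 of 4 of the 6 for *Prdx1* after HS (adjusted p up to 0.134) and for *Sod1* after FT (adjusted p up to 0.075). Conversely, *Cat* from 72 h to 2 weeks after HS passed without HS 72 h replicate 3 (-0.79, adjusted p = 0.0374), and *Gpx4* from 72 h to 1 week after FT passed without FT 1 week replicate 3 (-0.74, adjusted p = 0.0361).

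FT and HS were compared directly at each time to ask whether the severity of the lesion mattered. None of the 10 genes passed at 72 h, 1 week or 2 weeks, and neither did any gene of the table (0.0% of 16810 at each time by limma, with 505, 724 and 438 genes at an unadjusted p under 0.05). The edgeR quasi-likelihood test on recovered reads also called 0 genes at each time, the edgeR likelihood ratio test called 0, 8 and 1, and DESeq2 called 0, 7 and 1. *Gpx3* came closest, with a log2 difference of FT minus HS of 1.39 ± 0.23 at 1 week (adjusted p = 0.081), beside 0.37 ± 0.20 at 72 h (adjusted p = 1) and 0.62 ± 0.20 at 2 weeks (adjusted p = 1). The value at 1 week passed without FT 1 week replicate 1 (1.55, adjusted p = 0.0249), under quantile normalization (adjusted p = 0.0321), in the likelihood ratio test (1.42, adjusted p = 0.00042) and in DESeq2 (1.42, adjusted p = 0.0002), and was farther from passing without either HS 1 week sample (adjusted p = 0.92 and 1) or when the fit held only the 2 groups (adjusted p = 0.872). The genes described here were chosen with earlier results of these samples known, so that the direction of *Gpx3* here is not independent evidence. The sum of 10 markers of border-associated macrophages was 146 and 150.3 CPM at HS 1 week and 215 to 271 CPM at FT 1 week, with 0 of 10 markers passing in that comparison, whereas the monocyte sum was 431 and 503 CPM at HS 1 week and 220 to 356 CPM at FT 1 week. Their part in the *Gpx3* difference was not tested.

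The other 9 genes differed little between the injuries in their point estimates. Their log2 differences ranged from -0.35 (*Sod1* at 72 h, 95% confidence interval -0.67 to -0.03, adjusted p = 1) to 0.45 (*Nqo1* at 1 week, -0.34 to 1.23, adjusted p = 0.999). For *Gpx1* the difference was -0.29 at 72 h (-0.72 to 0.14), 0.15 at 1 week (-0.33 to 0.63) and 0.10 at 2 weeks (-0.33 to 0.52). For *Prdx1* it was -0.08 at 72 h (-0.57 to 0.40), 0.37 at 1 week (-0.17 to 0.91) and 0.21 at 2 weeks (-0.27 to 0.69). Intervals of this width do not show that the injuries act alike.

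Levels of different genes were set side by side per length, as CPM per kilobase (kb) of annotated exons. In NI *Gpx1* stood first with 188 ± 11.6 CPM per kb (SD, n = 3), followed by *Gpx4* (98.1 ± 3.62) and *Prdx1* (97.1 ± 11.3), whose samples overlapped. *Sod1* (36.8 ± 0.871) and *Cat* (33.1 ± 3.15) came next and overlapped each other. *Txnrd1* (3.22 ± 0.137), *Sod2* (3.17 ± 1.22) and *Gpx3* (2.25 ± 0.551) formed a range in which each overlapped the next. *Gclm* (1.11 ± 0.135) and *Nqo1* (1.07 ± 0.285) were lowest and overlapped. The length counts the exons over all transcripts of a gene, more than any 1 transcript need hold, which lowers the level per length. *Sod2* has 10.008 kb in this count, and *Sod1* 3.97 kb. Their longest transcripts, without those of retained introns, marked for decay or lacking a coding frame, have 5861 and 641 bases. The places of *Sod1* and *Sod2* in the order therefore depend on the length taken.

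*Gpx3* changed place in this order. It had rank 8 in NI and rank 6 at 72 h, with 34.3 ± 5.004 CPM per kb after HS and 44.1 ± 3.00 after FT (SD, n = 3), apart from *Cat* above and *Txnrd1* below. At FT 1 week it reached 58.3 ± 11.9 CPM per kb and took rank 5, where its samples overlapped those of *Sod1* (61.5 ± 6.30) and *Cat* (46.9 ± 16.9). The overlap of *Gpx3* with *Sod1* depends on the length taken for *Sod1*. At HS 1 week *Gpx3* had 21.8 ± 0.859 (SD, n = 2) and at 2 weeks 9.68 ± 1.60 after HS and 15.1 ± 3.29 after FT (n = 3), and had rank 6 in each. *Prdx1* had rank 3 in NI, where its samples overlapped those of *Gpx4* above it, and rank 2 in all injured groups, where they lay apart from *Gpx4* except at FT 1 week. Its samples overlapped those of *Gpx1* at both 2 week groups and at FT 1 week. *Gpx1* stood first in all 7 groups by its mean.

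**Figure D3:**
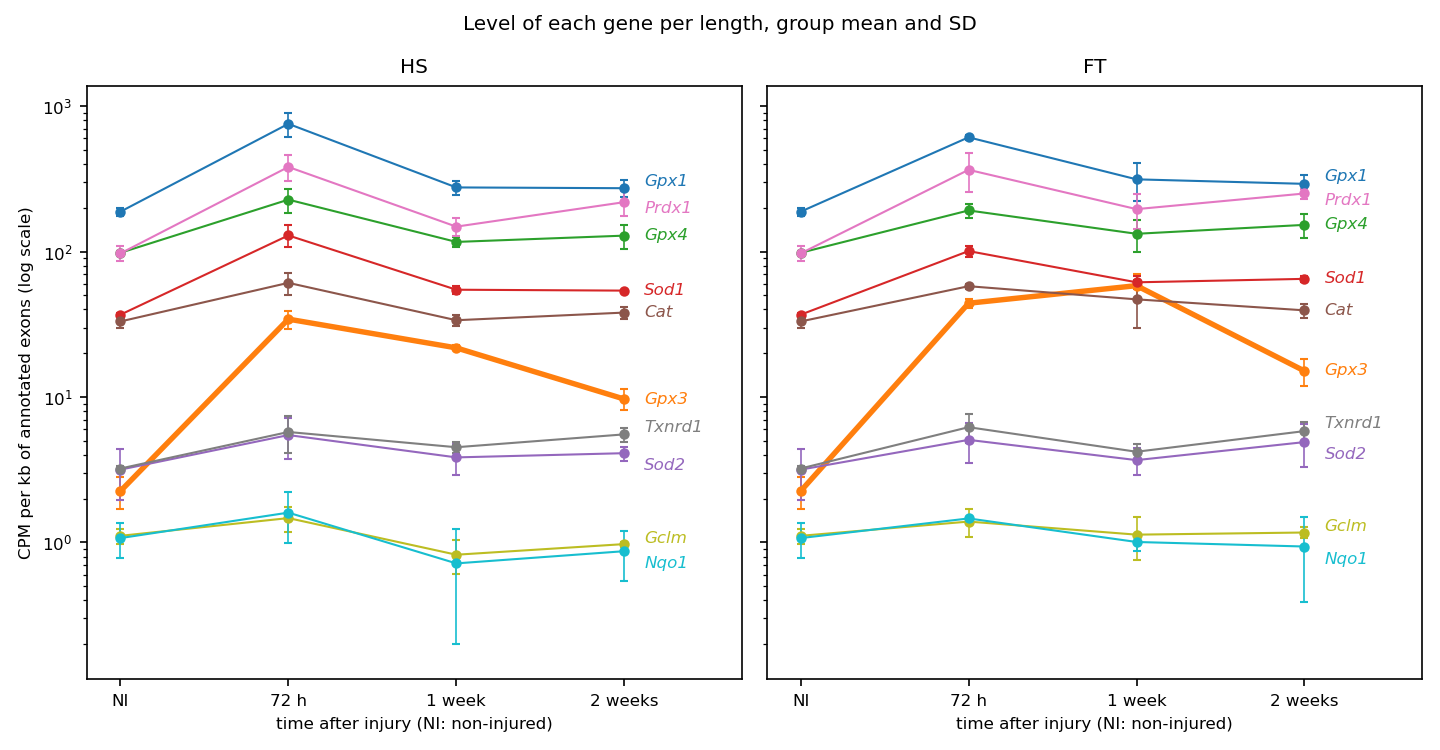
CPM per kb of annotated exons (y axis, log scale) of each gene in NI and at 72 h, 1 week and 2 weeks (x axis) after HS (left) and FT (right), as group mean with SD. *Gpx3* (thick line) crosses from 2.25 in NI, below *Txnrd1* and *Sod2*, to 34.3 and 44.1 at 72 h, while *Gpx1* stays on top and *Gclm* and *Nqo1* at the bottom in every group.

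The genes around the 10 in the same pathways were taken from 7 lists with 72 genes in the table. Like the 10, these lists were chosen with earlier results of these data known. At HS 72 h 30 of the 72 rose and 2 fell, and at FT 72 h 29 rose and 3 fell, beside the shares of all genes given above. With columns scaled to 1 total these counts became 22 and 9 at HS 72 h and 18 and 9 at FT 72 h. Over all genes the same scaling also lowered the rises and raised the falls. At HS 72 h it changed 2756 rising and 1829 falling genes to 1421 and 6267. At FT 72 h it changed 2491 and 1569 to 1310 and 5506. Under this scaling the 72 genes thus still had more rises than falls, whereas all genes had fewer. The median log2 fold change of the 72 was 0.45 at HS 72 h and 0.35 at FT 72 h. Later the counts were lower, with 2 rising and 1 falling at HS 1 week, 10 and 2 at HS 2 weeks, 11 and 2 at FT 1 week, and 17 and 2 at FT 2 weeks. Over all genes 2.07% rose at HS 1 week, 3.84% at HS 2 weeks, 5.11% at FT 1 week and 6.21% at FT 2 weeks, so that the count at HS 1 week is near that of all genes.

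Peroxiredoxins and thioredoxins were the list with the largest number of rises, 10 of 18 genes at 72 h after either injury, where 16.4% (HS) and 14.8% (FT) of all genes rose. *Prdx4*, a peroxiredoxin of the endoplasmic reticulum, had 39.4 to 48.2 CPM in NI, 203 to 284 CPM at HS 72 h and 187 to 250.3 CPM at FT 72 h, and rose by 2.32 ± 0.18 and 2.23 ± 0.18 on the log2 scale (adjusted p = 5.55e-09 and 1.02e-08). *Prdx2*, *Prdx3*, *Prdx5* and *Prdx6*, named after their values were seen, also rose at 72 h after both injuries, with log2 fold changes of 1.24 to 1.56 after HS and 1.04 to 1.41 after FT. *Srxn1* (sulfiredoxin, which repairs overoxidized peroxiredoxins) had 4.42 ± 1.00 CPM in NI. It rose at 72 h (log2 fold change 1.32 ± 0.37 after HS and 1.30 ± 0.37 after FT, adjusted p = 0.0102 and 0.0126) and at 2 weeks, to 12.1 ± 2.27 CPM after HS (adjusted p = 0.0302) and, with an adjusted p = 0.0035, to 16.8 ± 7.53 CPM in the FT samples (SD, n = 3). *Txnip*, which binds and inhibits thioredoxin, had 498 to 523 CPM in NI, 189 to 287 CPM at HS 72 h and 198 to 233 CPM at FT 72 h, and fell by 1.05 ± 0.21 after HS and by 1.23 ± 0.21 after FT on the log2 scale (adjusted p = 0.000678 and 0.000152). It also fell at HS 2 weeks, FT 1 week and FT 2 weeks (adjusted p = 0.0454, 0.00212 and 0.00716). *Txnrd3*, a thioredoxin reductase best known from testis, had a mean of 3.49 CPM in NI and 1.19 CPM at FT 72 h and fell by 1.24 ± 0.28 (adjusted p = 0.00278).

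Of the other glutathione peroxidases *Gpx7* and *Gpx8* are in the table, both of the endoplasmic reticulum. *Gpx7* had 0.772 to 1.07 CPM in NI, 6.97 to 10.2 CPM at HS 72 h and 5.25 to 8.61 CPM at FT 72 h, without overlap. Its log2 fold change was 2.74 ± 0.25 at HS 72 h (adjusted p = 8.54e-08), 2.44 ± 0.25 at FT 72 h (adjusted p = 4.26e-07) and 1.26 ± 0.25 at FT 1 week (adjusted p = 0.00291). It rose by less at HS 2 weeks and FT 2 weeks (0.89 and 0.85, adjusted p = 0.0455 and 0.0406). *Gpx8* had means of 0.597 CPM in NI, 1.67 CPM at HS 72 h and 1.31 CPM at FT 72 h and did not pass in any comparison with NI.

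In glutathione synthesis and recycling 3 of 13 genes rose and 1 fell at 72 h after each injury. Over all genes 16.4% (HS) and 14.8% (FT) rose and 10.9% and 9.33% fell, so that these counts are near those of all genes. The gene that fell was *Ggt5*, which encodes a gamma-glutamyl transferase, and it was lower than NI in all 6 comparisons, with 49.8 to 58.9 CPM in NI and 23.1 to 36.8 CPM after injury. Its log2 fold change ranged from -1.08 ± 0.19 at HS 1 week (adjusted p = 0.00128) to -0.68 ± 0.17 at HS 2 weeks (adjusted p = 0.017). *Slc7a11*, the cystine transporter that supplies cysteine for glutathione, had 4.71 ± 0.376 CPM in NI and 11.7 ± 1.78 CPM at HS 2 weeks (SD, n = 3), a log2 fold change of 1.22 ± 0.29 (adjusted p = 0.0131). At FT 2 weeks it was 1.20 ± 0.29 (adjusted p = 0.00974), and it did not pass at 72 h or 1 week. Among glutathione transferases 5 of 11 rose at 72 h after each injury, where 16.4% (HS) and 14.8% (FT) of all genes rose. *Gsto1* (an omega-class transferase) had 17.5 to 22.9 CPM in NI and rose in all 6 comparisons with NI, by 1.61 ± 0.23 at HS 72 h (adjusted p = 3.02e-05), 1.47 ± 0.23 at FT 72 h (adjusted p = 9.31e-05), 1.18 ± 0.26 at HS 1 week (adjusted p = 0.0123), 1.0995 ± 0.23 at HS 2 weeks (adjusted p = 0.00582), 1.45 ± 0.23 at FT 1 week (adjusted p = 0.000342) and 1.34 ± 0.23 at FT 2 weeks (adjusted p = 0.000564) on the log2 scale. *Mgst1*, a microsomal transferase, rose by 1.29 ± 0.30 at HS 72 h (adjusted p = 0.00314), 1.88 ± 0.30 at FT 72 h (adjusted p = 0.000102), 1.21 ± 0.30 at FT 1 week (adjusted p = 0.0152) and 1.05 ± 0.30 at FT 2 weeks (adjusted p = 0.0334).

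The list around NRF2 had 8 of 18 genes rising at 72 h after each injury and none falling. Over all genes 16.4% (HS) and 14.8% (FT) rose and 10.9% and 9.33% fell. *Hmox1*, heme oxygenase 1, which breaks down heme, had 27.1 to 72.3 CPM in NI, 212 to 903 CPM at HS 72 h and 114 to 496 CPM at FT 72 h. It rose by 3.46 ± 0.63 and 2.86 ± 0.63 on the log2 scale (adjusted p = 0.000328 and 0.00214), by 2.94 ± 0.71 at HS 1 week (adjusted p = 0.0229) and by 2.55 ± 0.63 at FT 2 weeks (adjusted p = 0.0119). Among the 8 were *G6pdx*, *Pgd*, *Taldo1* and *Tkt*, enzymes of the pentose phosphate pathway, which supplies the NADPH used to recycle glutathione and thioredoxin. They were picked out after their values were seen, and had log2 fold changes of 1.00 to 1.40 at HS 72 h and 0.86 to 1.30 at FT 72 h. *Nfe2l2* itself had 293 CPM in NI, 372 CPM at HS 72 h and 349.7 CPM at FT 72 h, with log2 fold changes of 0.34 ± 0.19 and 0.26 ± 0.19 that did not pass (adjusted p = 0.198 and 0.355), and its largest was 0.57 ± 0.19 at FT 2 weeks (adjusted p = 0.0804). *Keap1* had 32.6 CPM in NI and 35.1 and 37.0 CPM at 72 h after HS and FT, and log2 fold changes between -0.21 and 0.29 over the 6 comparisons, none of which passed. *Bach1* had 60.0 CPM in NI and 45.7 and 49.9 CPM at 72 h, and log2 fold changes of -0.40 ± 0.20 and -0.26 ± 0.20 that did not pass (adjusted p = 0.13 and 0.346).

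**Figure D4:**
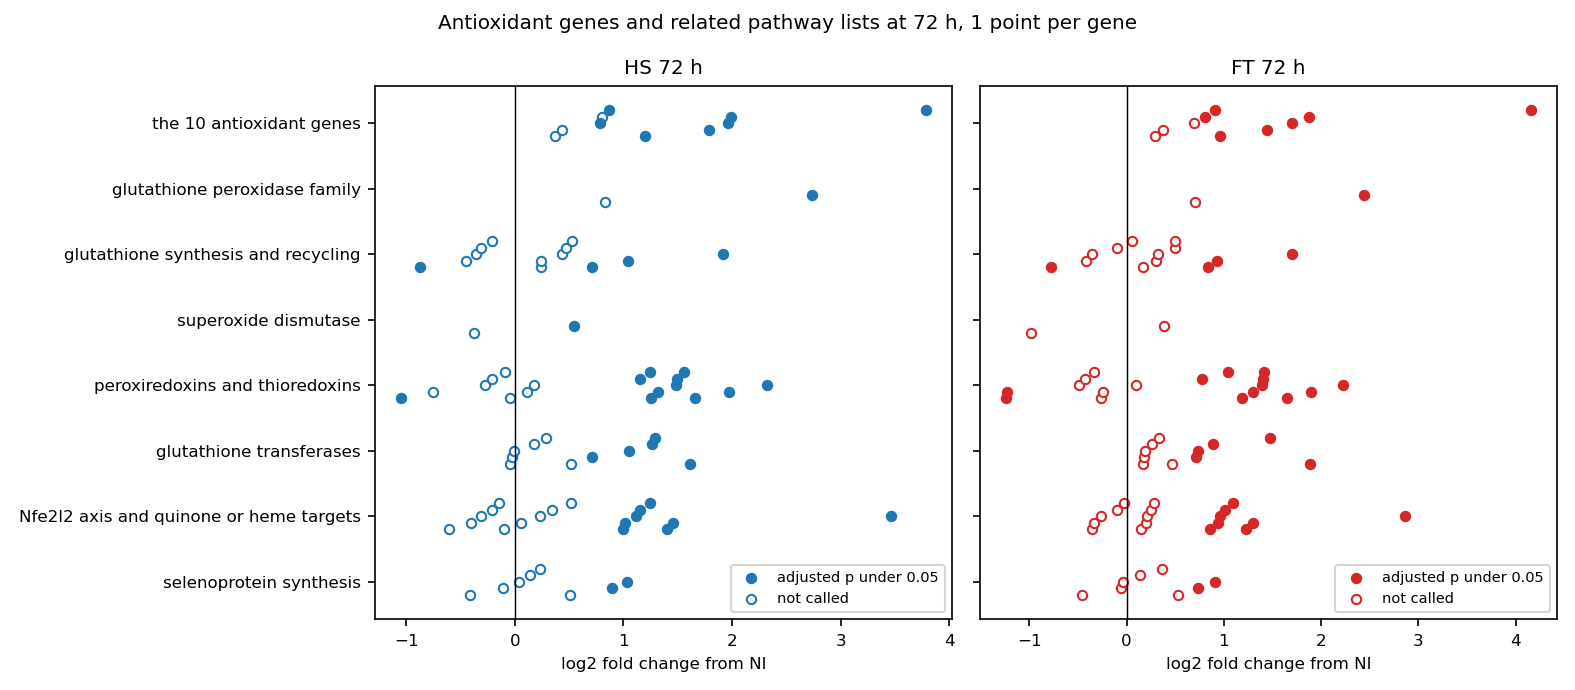
Log2 fold change from NI (x axis) at 72 h after HS (left, blue) and FT (right, red) of each of the 10 genes and of the genes of the 7 related lists (y axis), 1 point per gene, spread vertically for clarity. Filled points have an adjusted p under 0.05; the farthest right are *Gpx3* (3.79 and 4.16) and *Hmox1* (3.46 and 2.86).

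The remaining lists gave few calls. Of 8 genes for the synthesis of selenoproteins, on which glutathione peroxidases and thioredoxin reductases depend, 2 rose at 72 h after each injury and none later. At 72 h 16.4% (HS) and 14.8% (FT) of all genes rose, so that this count is near that of all genes. Of *Sod3* and *Ccs* (the copper chaperone of SOD1), *Ccs* rose at HS 72 h by 0.54 ± 0.20 on the log2 scale (adjusted p = 0.0492). Between FT and HS no gene of the lists passed. The smallest p was that of *Msrb2* at 72 h (log2 difference -0.61 ± 0.22, adjusted p = 1), *Mgst1* at 1 week (0.92 ± 0.34, adjusted p = 0.999) and *Glrx5* at 2 weeks (0.74 ± 0.31, adjusted p = 1).

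Of 65 calls against NI in 19 of the related genes named here, 40 were kept on leaving out any 1 sample and 25 were not. At 72 h the calls lost were those of *Srxn1* (without HS 72 h replicate 1, adjusted p = 0.0696, and without FT 72 h replicate 1, adjusted p = 0.0595) and of *Ccs* at HS 72 h (without NI replicate 1 or 2 or HS 72 h replicate 1 or 2, adjusted p up to 0.248). *Gpx7* at HS 2 weeks and at FT 2 weeks was lost without any 1 of the 6 samples (adjusted p up to 0.187 and 0.176), and *Srxn1* and *Txnip* at HS 2 weeks without any 1 of 5 (NI replicate 3 excepted for *Srxn1* and HS 2 weeks replicate 3 for *Txnip*, adjusted p up to 0.13 and 0.266). At HS 1 week HS 1 week replicate 2 decided *Ggt5* (adjusted p = 0.0551 without it), *Gsto1* (0.305, and 0.07 without NI replicate 2) and *Hmox1* (0.391, and up to 0.0996 without NI replicate 2 or 3). *Ggt5* was lost at HS 2 weeks without NI replicate 3 or HS 2 weeks replicate 1 or 2 (adjusted p up to 0.104) and at FT 1 week without NI replicate 3 or FT 1 week replicate 3 (up to 0.0798). *Mgst1* was lost without NI replicate 2 or 3 at FT 1 week and FT 2 weeks, and without FT 1 week replicate 3 or FT 2 weeks replicate 2 or 3 (adjusted p up to 0.11 and 0.194). *Slc7a11* was lost at HS 2 weeks without NI replicate 2 or 3 or HS 2 weeks replicate 1 (adjusted p up to 0.0668) and at FT 2 weeks without FT 2 weeks replicate 3 (0.0621). At FT 2 weeks *Hmox1* was lost without NI replicate 2 or 3 or FT 2 weeks replicate 2 (up to 0.0679) and *Txnip* without FT 2 weeks replicate 1 (0.0504). With columns scaled to 1 total, *Ccs* at HS 72 h (0.04, adjusted p = 0.885), *Srxn1* and *Pgd* at 72 h after both injuries (adjusted p from 0.0572 to 0.0861) and *G6pdx* at FT 72 h (0.39, adjusted p = 0.072) were among the 18 calls lost. Under the same scaling 7 calls were gained among the named related genes.

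For the 5 genes of the 10 that rose at least 2-fold in some comparison with NI, the genes with the most similar pattern were sought among 9871 genes with a mean of at least 5 CPM, by Pearson's r of log2 values over the 20 samples. These samples fall into the 7 groups and share their libraries, so that r is a description of shared group levels. *Gpx3* was most like *Wfdc17* (r = 0.95) and *Saa3* (r = 0.93). *Gpx1* was most like *Cfl1* (0.97) and *Stra13* (0.97), *Gpx4* like *Myl6* (0.97) and *Ndufb9* (0.96), *Sod1* like *Tubb5* (0.97) and *Cfl1* (0.96), and *Prdx1* like *Pbdc1* (0.98) and *Psmb6* (0.97).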

How the data were processed

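Per the methods and labels, the authors mapped reads with TopHat2 2.0.9 to mm10 (GRCm38), counted them per gene with HTSeq 0.5.4p3, kept genes with at least 10 counts in at least 2 replicates, and normalized them with edgeR 3.3.6. The deposited signal is a table of normalized counts on the CPM scale for 16810 genes and 20 samples, and 99.989% of its values were whole multiples of 1 read (tolerance 0.001 of a step), from which reads and depth (3.87 to 34.1 mega-reads) were recovered. Depth limits *Nqo1* and *Gclm* most.

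Log2(CPM + 0.5) was fitted with limma 3.58.1 (R 4.3.3), with 1 mean per group, all samples and a trended variance, and p-values were adjusted by Benjamini-Hochberg over all genes. A gene rose or fell at an adjusted p under 0.05. The fit was tested on simulated data. Alternatives were 0.1 or 1 CPM added, genes of at least 1 CPM in at least 2 samples, fits on the samples of the 2 groups, median of ratios and quantile scaling, columns scaled to 1 total, no 2-fold limit, count tests of the recovered reads (edgeR 4.0.16, both its tests, and DESeq2 1.42.0), a replicate block, and leaving out each sample. The 10 genes and all lists were chosen with earlier results of these data known. From the lists, the 3 largest rises and falls with a mean of at least 1 CPM in each comparison with NI, the smallest p between FT and HS, and *Nfe2l2*, *Keap1* and *Bach1* were named. Gene positions are from GENCODE and promoters from RefSeq.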

Additional observations from a re-analysis of the deposited data

How the results depend on the processing

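Of the tests of single genes among the 10, 2402 kept their direction and side of the threshold over the alternatives, 72 lost a call and 36 gained one, and no called direction turned. The counts that follow are of genes that passed and changed at least 2-fold. Without the 2-fold limit, so by adjusted p alone, the count of the 10 genes against NI went from 5 to 7 at HS 72 h and from 2 to 4 at HS 2 weeks. It went from 4 to 7 at FT 72 h, from 1 to 4 at FT 1 week and from 2 to 4 at FT 2 weeks. Between times it went from 3 to 5 for HS 1 week and for HS 2 weeks against 72 h. For FT against 72 h it went from 1 to 3 at 1 week and from 2 to 3 at 2 weeks. Quantile normalization and columns scaled to 1 total both gave 1 at HS 2 weeks, 1 at FT 2 weeks, 1 for HS 2 weeks against HS 1 week (0 in the report) and 0 for FT 1 week against 72 h, and quantile normalization gave 1 for FT against HS at 1 week, 1 for HS 1 week against 72 h and 1 for FT 2 weeks against 72 h. The edgeR quasi-likelihood test, the edgeR likelihood ratio test and DESeq2 gave 2 at FT 1 week and 0 for FT 1 week against 72 h, as did the fit on the samples of the 2 groups for the latter (0), and the likelihood ratio test and DESeq2 gave 1 for FT against HS at 1 week and 1 for HS 2 weeks against HS 1 week. The cause of these differences was not tested. For the 72 related genes, columns scaled to 1 total gave 12 at HS 72 h (26 in the fit used), 2 at HS 2 weeks (4) and 12 at FT 72 h (20). The fit on the samples of the 2 groups gave 6 at HS 1 week (3), and dropping the 2-fold limit gave 12 at HS 2 weeks, 32 at FT 72 h, 13 at FT 1 week (5) and 19 at FT 2 weeks (9). At HS 72 h dropping the limit gave 30 higher and 2 lower (25 and 1 with it). On leaving out 1 sample the count of the 10 genes ranged from 1 to 2 at FT 1 week, 0 to 1 for FT against HS at 1 week, 0 to 2 for FT 1 week against 72 h, 1 to 2 for FT 2 weeks against 72 h and 2 to 4 for HS 1 week against 72 h, and the count of the 72 from 0 to 3 at HS 1 week, 2 to 5 at HS 2 weeks and 4 to 8 at FT 1 week.

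Pairs of samples with equal replicate number had a median r of 0.0017 between their deviations from group means (57 pairs, 20 over 0.1). The median was 6e-04 over 114 other pairs, 43 of them over 0.1. Single pairs ranged from -0.43 to 0.44 at equal number and from -0.44 to 0.43 otherwise. Deviations within a group cancel out by construction, which holds the median low, so that it cannot decide whether samples were paired. A batch shared across groups was not tested for. A fit with replicate block gave the same counts of the 10 genes changed at least 2-fold (5 at HS 72 h and 4 at FT 72 h), with *Sod1* at HS 2 weeks (0.55, adjusted p = 0.061) and *Gpx1* at FT 1 week (0.70, adjusted p = 0.060) no longer passing and *Sod2* at HS 72 h passing (0.80, adjusted p = 0.041). With 2 samples at HS 1 week, leaving out 1 left a single sample whose spread was taken from the other groups.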
